A study of Mus musculus with 281 samples.

Results

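The lateral wall of the cochlea carries a set of transcription factors known from inner ear development and hereditary deafness, and 9 of them were followed through single cells of the stria vascularis. The members were taken by name: Esrrb, Tbx1, Tbx18, Eya1, Eya4, Pou3f4, Otx2, Alx1 and Sox9. All 9 stand among the 47752 genes of the deposited gene table. No measured value entered the choice of names, although earlier results of these data were known when it was made.

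The cells were picked singly with a glass micropipette from the stria vascularis of mice on a 129S6 background and were profiled by Smart-Seq2, a full-length method without molecular identifiers. Most cells came from wild type (WT) mice of postnatal day 22 to 42, while 40 came from Slc26a4+/- mice of day 26 to 33 and 69 from Slc26a4-/- mice of day 24 to 44. Slc26a4 encodes pendrin, the anion exchanger whose loss causes deafness with an enlarged vestibular aqueduct. The profiles carry 4 sequencing run dates, and every Slc26a4+/- cell stems from run date 4. The labels do not tie a cell to a mouse, so each genotype, and each cell type within it, counted as 1 sample. No p-value is therefore given, and differences are set beside the spread of cells and of run dates.

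The epithelium of the stria vascularis makes the endolymph and its potential. Marginal cells (MCs) secrete potassium into the endolymph, intermediate cells (IMCs) are pigment cells that carry the Kcnj10 channel, spindle cells (SCs) border the marginal cells and root cells (RCs) send processes into the spiral ligament. Transcription factors bind DNA and set which genes a cell transcribes. Esrrb, Tbx1, Pou3f4, Eya1, Eya4 and Sox9 are needed for the normal inner ear, and Pou3f4 and Tbx18 are known from the mesenchyme and fibrocytes of the lateral wall rather than from its epithelium.

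Cell types were rebuilt by clustering, in which the members took no part. Of the cells, 84 were IMC-like, 33 SC-like, 37 RC-like and 21 MC-like, each name resting on markers that did not include a member. A further 17 cells, whose leading genes were Crhbp, Slc26a7 and Vmo1, had no clear type and is called the Slc26a7/Vmo1 cells here. A cluster of 51 cells led by Sorcs2 scored highest for IMC markers in 49 cells, but a fibrocyte marker (Col1a1) stood among its 10 leading genes, so it stayed unnamed. The last 38 cells, with Slc4a1 and Mpo as leading genes, held no single type. The WT medians of both genes were 0 CPM there and the summed blood and marrow markers ranged from 0 to 283191 CPM, so only some of these cells carried them. The fibrocyte markers Coch, Otos and Dcn had medians of at most 3.01 CPM (counts per 1e6 counts of the cell) in the 4 named types. The summed level of 8 fibrocyte markers had WT medians of 9.12 to 295.9 CPM in these types, but single cells reached 9697 CPM among SC-like cells, 23385 CPM in the Sorcs2 cluster and 49653 CPM in the Slc4a1/Mpo cluster. No cluster was named for the fibrocytes, for which Pou3f4 and Tbx18 are known. Depth ran from 1848 to 7932729 estimated counts per cell with a median of 1312950, and 20 cells held fewer than 100000. Shares of cells below count a gene as present from 10 estimated counts, and their 95% exact binomial intervals cover counting error only.

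Slc26a4 itself was checked in the SC-like and RC-like cells, which together are called pendrin cells. Its median level was 512.9 CPM over 40 WT, 100.5 CPM over 8 Slc26a4+/- and 45.7 CPM over 22 Slc26a4-/- pendrin cells. The ranges overlapped, from 0 to 4825 CPM in WT and from 0 to 3959 CPM in Slc26a4-/- cells, and 11 of the 22 Slc26a4-/- cells had at least 10 counts. By type the medians went opposite ways: 692.5 CPM in WT and 12.3 CPM in Slc26a4-/- SC-like cells, and 33.5 and 894.2 CPM in RC-like cells. Counts of this gene thus did not separate the genotypes, and which part of the gene the mutant allele lacks is not given in the sources used here.

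Stretches of 250 bases before the transcription starts of 3 members are shown because their RNA was common in different cells: Esrrb in MC-like cells, Tbx1 in MC-like and SC-like cells and Otx2 in the Slc26a7/Vmo1 cells. The sequences are those of RefSeq on GRCm38.p6, read 5′ to 3′ on the strand of the gene, with CG dinucleotides in capitals. Esrrb, on the plus strand, has a distal start at chr12:86361117 and a proximal start at chr12:86421644. Otx2 and Tbx1 lie on the minus strand.

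Esrrb distal start, chr12:86360867-86361116: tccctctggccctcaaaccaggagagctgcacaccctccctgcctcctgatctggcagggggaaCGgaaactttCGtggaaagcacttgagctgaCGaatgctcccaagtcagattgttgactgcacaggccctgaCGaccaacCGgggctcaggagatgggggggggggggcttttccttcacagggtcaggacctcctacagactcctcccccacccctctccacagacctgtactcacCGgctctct
Esrrb proximal start, chr12:86421394-86421643: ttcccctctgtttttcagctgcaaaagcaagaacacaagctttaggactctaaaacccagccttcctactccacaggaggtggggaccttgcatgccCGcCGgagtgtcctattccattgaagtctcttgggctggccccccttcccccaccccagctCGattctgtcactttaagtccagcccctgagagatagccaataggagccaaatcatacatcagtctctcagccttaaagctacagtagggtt
Otx2, chr14:48667645-48667894: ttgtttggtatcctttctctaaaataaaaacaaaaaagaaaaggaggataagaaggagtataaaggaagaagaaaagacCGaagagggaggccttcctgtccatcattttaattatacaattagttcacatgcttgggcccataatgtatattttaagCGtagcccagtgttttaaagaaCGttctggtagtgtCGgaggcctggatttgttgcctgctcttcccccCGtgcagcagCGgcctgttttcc
Tbx1, chr16:18590672-18590921: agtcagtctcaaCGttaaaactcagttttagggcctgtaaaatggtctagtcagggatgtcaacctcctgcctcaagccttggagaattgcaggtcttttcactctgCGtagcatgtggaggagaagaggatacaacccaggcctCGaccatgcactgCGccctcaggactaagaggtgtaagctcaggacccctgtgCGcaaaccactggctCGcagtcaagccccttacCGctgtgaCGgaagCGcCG

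The distal Esrrb stretch had 6 CG dinucleotides and 60.8% G and C, the proximal one 3 and 52%, that of Otx2 6 and 42%, and that of Tbx1 10 and 54.4%. Over all 32851 such stretches of the mouse genome the medians were 6 CG dinucleotides and 52.4%. The proximal Esrrb start belongs to transcripts that held 23423 estimated counts over all cells, and the distal one to a transcript that held 405.1. The transcript with the most counts, Esrrb-206, has a start of its own at chr12:86470117, for which no stretch is shown. The RNA of Esrrb thus came mainly from models that begin downstream of the distal start.

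Binding motifs of the members' own families were searched on both strands of the 12 stretches available for 6 members (Esrrb, Tbx1, Tbx18, Eya4, Pou3f4 and Otx2). The motif of oestrogen-related receptors (TNAAGGTCA) lay in 1.14% of all stretches, that of OTX factors (TAATCC) in 6.25%, that of T-box factors (AGGTGTGA) in 1.12%, that of SOX factors (ACAATGG) in 3.02% and that of POU factors (ATGCAAAT) in 1.601%. Among the 12 stretches only that of another Otx2 start, at chr14:48665110-48665359, held a match, to the OTX motif on its other strand. That stretch lies within the gene and wholly in exon sequence, so the match is not read as a site upstream of Otx2. Some other stretches of Otx2, Eya4 and Pou3f4 are also partly exonic, while those printed above hold no exon bases. A match of letters is a description and not a bound site.

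In WT cells, 8 of the 9 members reached a mean of 10 CPM in at least 1 of the 4 named types. For 3 of them the highest type stood at least 2-fold above the next, while 34.3% of the 11384 genes expressed at that level did so. The share of members was thus close to that of all genes. The 3 were Esrrb in MC-like cells, Alx1 in IMC-like cells and Tbx18 in RC-like cells. The same placement was made by 6.16%, 8.02% and 11.6% of all genes for MC-like, IMC-like and RC-like cells. No member was placed in SC-like cells, where 8.48% of all genes were.

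**Figure D1:**
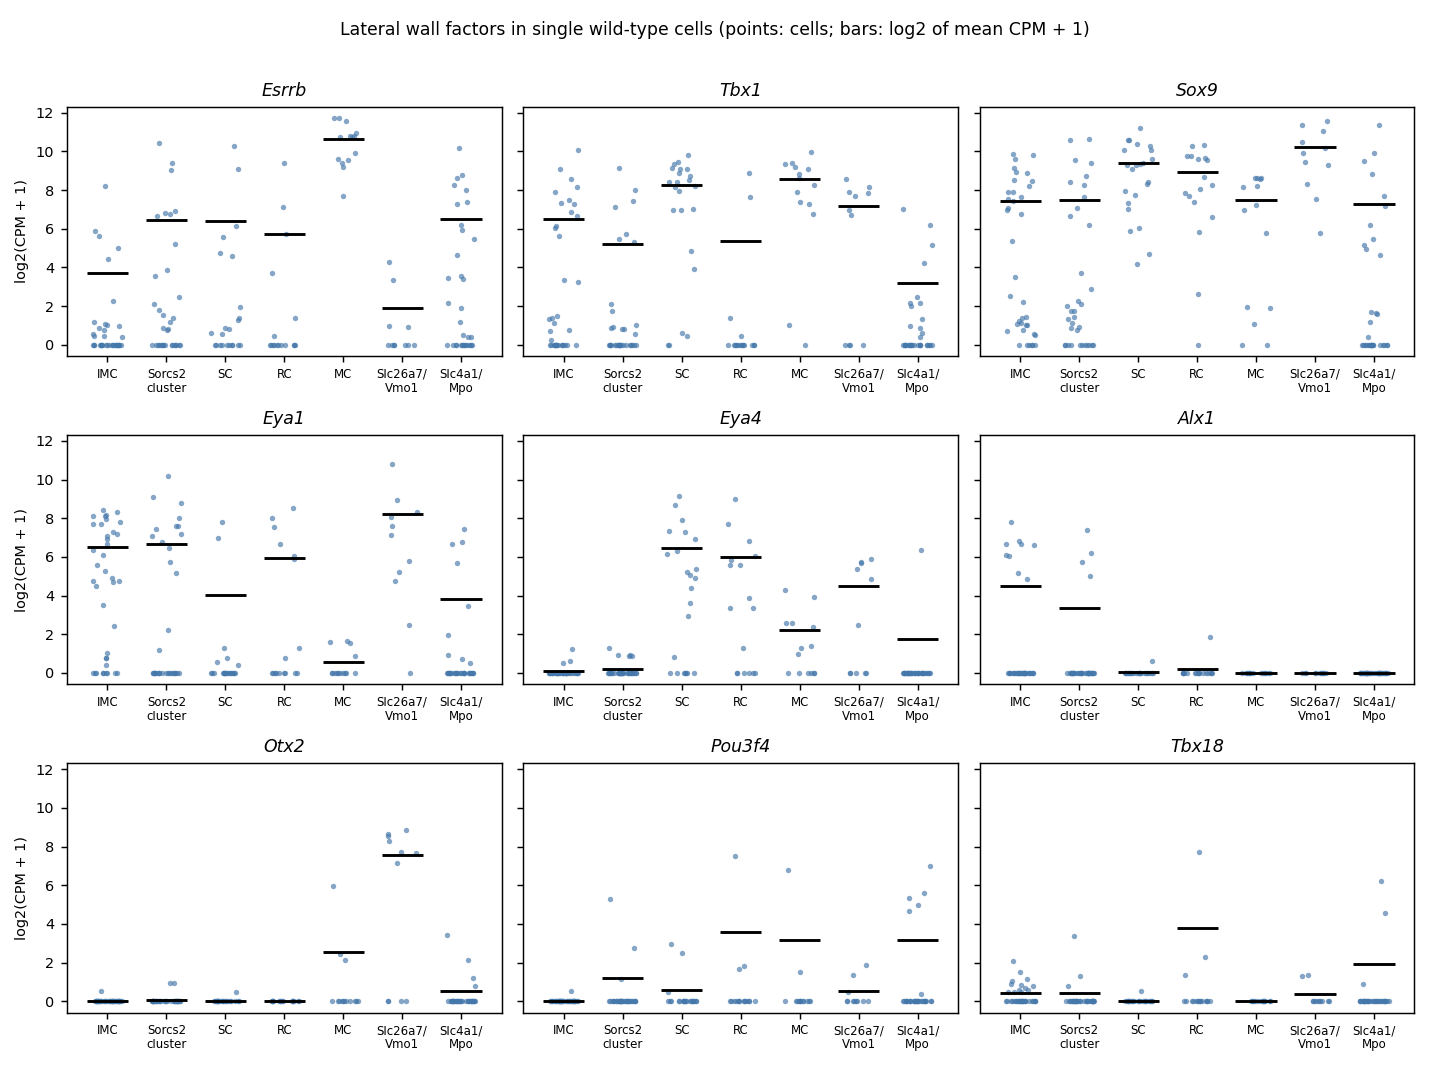
Level of the 9 members in WT cells by cell type or cluster, as log2(CPM + 1) of each cell (points), with the log2 of the mean CPM + 1 as a bar. Esrrb fills all MC-like cells from 205.3 CPM upward, Otx2 is seen in the Slc26a7/Vmo1 cells, and Sox9 is spread over all types.

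Esrrb (chr12:86361117-86521628, plus strand) encodes an orphan nuclear receptor of the oestrogen-related group that is known to be required for marginal cell function and is mutated in recessive deafness. In the 14 MC-like WT cells its level ran from 205.3 to 3414 CPM with a median of 1695 CPM and a mean of 1619 CPM. Every one of these cells carried it, and the lowest still stood above the medians of the other named types. The mean was 84.3 CPM in SC-like, 52.3 CPM in RC-like and 12.3 CPM in IMC-like cells, where the medians were 0.549, 0 and 0 CPM.

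MC-like cells thus exceeded SC-like cells 18.98-fold in the mean (log2 ratio 4.25, SD 3.87 over the 3 run dates with at least 2 cells of each type, the dates used for each SD unless stated), and they were higher on each of the 3 run dates that held both. The means of MC-like WT cells by run date were 3398 CPM in 2 cells, 948 CPM in 4 and 1509 CPM in 8. The levels of the other types rested on few cells: a single SC-like cell of 1224 CPM held 63.1% of the SC-like sum, and a single RC-like cell of 684.0 CPM held 76.9% of the RC-like sum. SC-like cells stood above RC-like cells on none of the 3 run dates with at least 2 cells of each and on 1 of 4 when single cells were allowed, so these neighbours cannot be ranked. In the unnamed Slc4a1/Mpo and Sorcs2 clusters the WT means were 90.97 and 87.7 CPM.

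All 21 MC-like cells of the 3 genotypes had at least 10 counts of Esrrb (100%, interval 83.9 to 100%). The share was 18.2% in SC-like cells (6 of 33), 10.8% in RC-like cells (4 of 37), 7.14% in IMC-like cells (6 of 84) and 5.88% in Slc26a7/Vmo1 cells (1 of 17). The 6 SC-like cells with Esrrb had a median summed MC marker level of 4529 CPM, against 4104 CPM in the 27 SC-like cells without it. Among RC-like cells the sums were 2113 CPM in the 4 with Esrrb and 389.6 CPM in the 33 without, and in IMC-like cells 738.4 CPM in 6 and 310.2 CPM in 78. The part of marginal cell RNA in these few cells was not tested.

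Esrrb was high in MC-like cells of each genotype. The 2 Slc26a4+/- cells had 2562 and 2634 CPM. The 5 Slc26a4-/- cells had 948.7, 1494, 1554, 1728 and 3272 CPM. Both sets fell within the range of the WT cells, and with 2 and 5 cells no finer comparison can be made. By age, the means of MC-like WT cells ran from 611.1 CPM at day 34 (3 cells) to 2206 CPM at day 28 (4 cells), with no order in time.

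Of the 6 Esrrb transcripts quantified, Esrrb-206 took 59.9% of the estimated counts in MC-like cells and was the highest by counts in 19 of 21 cells. Esrrb-203 took 26.9%, Esrrb-201 11.5% and Esrrb-202 1.19%. On the TPM scale, which corrects for length, Esrrb-206 held 80.7%. Its model is short (1344 bases) beside that of Esrrb-203 (4196 bases), and these shares depend on the transcript models.

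Tbx1 (chr16:18580979-18590671, minus strand) encodes a T-box factor that is the main gene of the 22q11.2 deletion syndrome and acts in the otic vesicle and its surrounding mesenchyme. It was carried by MC-like and SC-like cells alike. WT MC-like cells ran from 0 to 1008 CPM with a median of 351.4 CPM, and WT SC-like cells from 0 to 900.4 CPM with a median of 294.5 CPM. The means of 376.8 and 308.6 CPM differed by 0.29 on the log2 scale, far less than the SD of 3.04 over run dates.

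The median of Tbx1 was 123.4 CPM in WT Slc26a7/Vmo1 cells, 0.963 CPM in those named IMC-like and 0 in RC-like ones. Over all genotypes 90.5% of MC-like cells (interval 69.6 to 98.8%), 78.8% of SC-like cells (61.1 to 91.02%) and 70.6% of Slc26a7/Vmo1 cells (44.04 to 89.7%) had at least 10 counts. Only 2 of 37 RC-like cells did (5.41%, 0.661 to 18.2%). Pooled over genotypes, the intervals of SC-like and RC-like cells, the 2 types that make pendrin, lay apart. Like all intervals here they take cells as independent, which the labels cannot show, so this is no test. By run date 1 to 4, WT SC-like cells with Tbx1 numbered 1 of 3, 1 of 2, 13 of 15 and 2 of 3. WT RC-like cells with it numbered 0 of 6, 0 of 1, 1 of 4 and 1 of 6. In IMC-like cells the share was 25%, and the WT mean of 90.5 CPM drew 30.8% of its sum from a single cell of 1059 CPM.

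Tbx18 (chr9:87702800-87731260, minus strand), a T-box factor of the otic mesenchyme needed for spiral ligament fibrocytes, was nearly absent. Its RC-like mean of 12.6 CPM came to 97.5% from 1 cell of 209.6 CPM and was 0.342 CPM without it. In IMC-like, SC-like and MC-like WT cells the means were 0.330, 0.0195 and 0 CPM. The 2-fold placement in RC-like cells is therefore the placement of 1 cell.

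**Figure D2:**
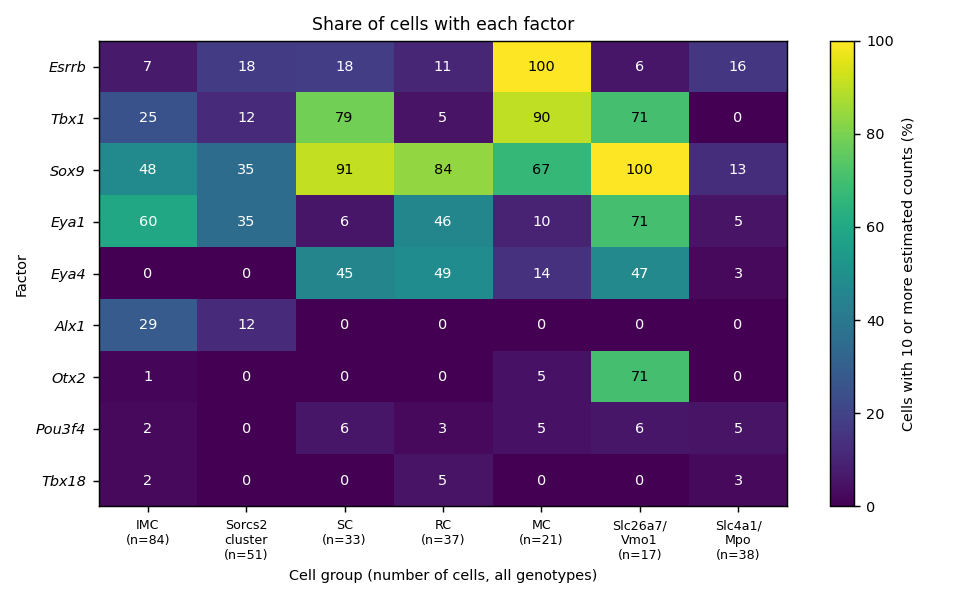
Share of cells with at least 10 estimated counts of each member (rows) in each cell type or cluster (columns), all genotypes together, in percent, as shade and number. Esrrb reaches 100% in MC-like cells and at most 18.2% in the other named types, while Tbx1 is shared by MC-like (90.5%) and SC-like cells (78.8%).

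Eya1 (chr1:14168954-14310235, minus strand) and Eya4 (chr10:23102963-23350786, minus strand) encode coactivators of the SIX-family homeodomain factors with phosphatase activity, mutated in branchio-oto-renal syndrome and in dominant progressive deafness. The pair shared only some of the cells that carried them. Eya1 in WT IMC-like cells ran from 0 to 348.3 CPM with a median of 27.6 CPM, and in WT Slc26a7/Vmo1 cells from 0 to 1784 CPM with a median of 141.1 CPM. In WT MC-like cells its highest value was 2.17 CPM.

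At least 10 counts of Eya1 were found in 59.5% of IMC-like cells (interval 48.3 to 70.1%), 70.6% of Slc26a7/Vmo1 cells, 45.9% of RC-like cells (29.5 to 63.1%), 9.52% of MC-like cells and 6.06% of SC-like cells (0.743 to 20.2%). Pooled over genotypes, the Eya1 intervals of RC-like and SC-like cells lay apart, in the opposite sense to Tbx1. They take cells as independent, which the labels cannot show, so this is no test. By run date 1 to 4, WT RC-like cells with Eya1 numbered 1 of 6, 0 of 1, 1 of 4 and 4 of 6. The WT SC-like cells with Eya1 numbered 0 of 3, 0 of 2, 2 of 15 and 0 of 3. The WT means of IMC-like and RC-like cells, 90.5 and 61.5 CPM, differed by 0.55 on the log2 scale, less than the SD of 1.28 over run dates. The WT mean of the Slc26a7/Vmo1 cells (302.7 CPM) was 2.96-fold that of the Sorcs2 cluster (101.7 CPM), and 1 cell gave 53.6% of it.

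Eya4 was carried by SC-like and RC-like cells. WT SC-like cells ran from 0 to 560.9 CPM with a median of 29.5 CPM, and WT RC-like cells from 0 to 509.2 CPM with a median of 9.37 CPM. The means of 86.4 and 63.5 CPM differed by 0.44 on the log2 scale, within the SD of 1.94 over run dates. It reached 10 counts in 45.5% of SC-like, 48.6% of RC-like, 47.1% of Slc26a7/Vmo1 and 14.3% of MC-like cells. The cells that reached it were deeper. Median depth was 1929190 counts in SC-like cells with Eya4 and 575066 in those without, and 2084170 and 786820 in RC-like cells. The part of depth in these shares was not tested, so cells under 10 counts cannot be taken to lack Eya4.

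Not 1 of the 84 IMC-like cells had 10 counts of Eya4, which allows a share of up to 4.30%. The highest IMC-like value in WT was 1.33 CPM. Eya4 thus did not reach 10 counts in IMC-like cells, in which Eya1 was common. The upper limit lay below the intervals of SC-like cells (28.1 to 63.6%) and RC-like cells (31.9 to 65.6%). Elsewhere the pair met: 11 of 37 RC-like and 6 of 17 Slc26a7/Vmo1 cells had at least 10 counts of both. Of the 2 Eya4 transcripts, the same one led by counts, with 63.9% of the counts among SC-like, 61.5% among RC-like and 84.8% among Slc26a7/Vmo1 cells. On the TPM scale the other one led in RC-like cells, with 56.5%.

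Otx2 (chr14:48657677-48673819, minus strand) encodes a homeodomain factor of the forebrain, the eye and the ventral otocyst. Among the clusters seen here it was found mainly in the Slc26a7/Vmo1 cells. The 11 WT cells of that cluster ran from 0 to 459.5 CPM with a median of 199.2 CPM, and 7 of them had at least 10 counts. The 4 Slc26a4+/- cells had 46.8, 118.9, 313.7 and 364.1 CPM, and the 2 Slc26a4-/- cells 0 and 345.4 CPM.

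Over all genotypes 12 of 17 Slc26a7/Vmo1 cells had Otx2 (70.6%, interval 44.04 to 89.7%). Elsewhere in the named types it was found in 1 of 21 MC-like cells, with 61.2 CPM, and in 1 of 84 IMC-like cells, with 24.98 CPM. None of the 33 SC-like and 37 RC-like cells had it, which allows shares of up to 10.6% and 9.49%. The WT mean of 189.7 CPM stood 32.2-fold above that of MC-like cells, with run-date means of 46.7 CPM (3 cells), 349.5 CPM (5 cells) and 66.4 CPM (3 cells).

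The WT cells of this cluster without Otx2 thus came from run dates 2 and 4, and all 5 of run date 3 carried it. The leading Otx2 transcript took 42.2% of the counts there, the transcript behind the printed stretch 22.7%, and a further pair 18.2% and 12.8%. On the TPM scale the transcript behind the printed stretch led, with 37.2% against 15.3%. Slc26a7 and Vmo1 are known from Reissner's membrane, which bounds the cochlear duct on another side. No marker list of that membrane was used here, and the cells kept no type name.

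Pou3f4 (chrX:110814280-110817207, plus strand), the POU factor of X-linked deafness, which acts in the otic mesenchyme, was found in isolated cells. Its RC-like WT mean of 11.1 CPM came to 97.5% from 1 cell of 183.9 CPM, and its MC-like WT mean of 7.84 CPM to 98.3% from 1 cell of 107.96 CPM. In SC-like and IMC-like WT cells the means were 0.509 and 0.0116 CPM. No type carried Pou3f4 as a group.

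Alx1 (chr10:102998707-103030215, minus strand), a paired-type homeodomain factor of the neural crest and the face, was seen in IMC-like cells, which are themselves of neural crest origin. The WT cells ran from 0 to 225.6 CPM with a median of 0 and a mean of 21.9 CPM, and 9 of 38 had at least 10 counts (23.7%, interval 11.4 to 40.2%). Over all genotypes 24 of 84 IMC-like cells did (28.6%, 19.2 to 39.5%). No SC-like, RC-like, MC-like or Slc26a7/Vmo1 cell had 10 counts, and the IMC-like mean stood 19.9-fold above that of RC-like cells. Over the Sorcs2 cluster, whose IMC markers were also high, it was 2.24-fold.

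Sox9 (chr11:112782224-112787760, plus strand), a factor of the SOX family that acts from the otic placode onward and in cartilage, was the member found most widely. In WT cells the median was 956.8 CPM in Slc26a7/Vmo1 cells (53.3 to 3015 CPM), 631.1 CPM in SC-like cells (16.8 to 2345 CPM) and 307.5 CPM in RC-like cells (0 to 1281 CPM). It was 137.998 CPM in MC-like cells (0 to 398.2 CPM) and 7.45 CPM in IMC-like cells (0 to 937.2 CPM). All ranges overlapped.

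The mean of RC-like cells (491.0 CPM) exceeded that of MC-like cells (177.4 CPM) by 1.46 on the log2 scale, and was higher on all 3 run dates with both. The SD was 0.0656 over the 2 dates with at least 2 cells of each but 3.27 over all 3, where the third held 1 RC-like cell, so the difference did not exceed the spread of run dates. SC-like over RC-like cells (0.47, SD 1.64) and MC-like over IMC-like cells (0.02, SD 4.07) did not differ beyond run dates. All 17 Slc26a7/Vmo1 cells had at least 10 counts (100%, interval 80.5 to 100%), as did 90.9% of SC-like, 83.8% of RC-like, 66.7% of MC-like and 47.6% of IMC-like cells. IMC-like cells were split: 19 of 38 WT cells had Sox9 and the others did not reach 10 counts.

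Levels of different members are set beside each other as TPM, which corrects for transcript length but depends on the transcript models. In WT MC-like cells the mean TPM was 1477 for Esrrb, 298.2 for Tbx1 and 62.7 for Sox9. In WT SC-like cells it was 257.3 for Tbx1, 216.01 for Sox9 and 32.9 for Eya4. In WT Slc26a7/Vmo1 cells it was 433.6 for Eya1, 392.7 for Sox9, 248.2 for Otx2 and 119.1 for Tbx1. Over all genotypes an Eya1 model of 664 bases held 71.4% of the Eya1 TPM in that cluster but 24.8% of the counts. The WT mean CPM there was 302.7 for Eya1 and 1196 for Sox9, so the order of these depends on the scale. Esrrb in MC-like cells was the highest mean TPM of any member in these types.

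Combinations of members were also counted within single cells. Esrrb and Tbx1 were both present, at 10 counts or more, in 19 of 21 MC-like cells (90.5%, interval 69.6 to 98.8%), against 6 of 33 SC-like (18.2%, 6.98 to 35.5%), 1 of 37 RC-like and 3 of 84 IMC-like cells. Sox9 with Tbx1 was found in 26 of 33 SC-like cells (78.8%, 61.1 to 91.02%) and in 2 of 37 RC-like cells (5.41%). These are the shares of Tbx1 alone in both types, so the pair adds nothing to them. The same pair was found in 13 of 21 MC-like, 12 of 17 Slc26a7/Vmo1 and 11 of 84 IMC-like cells. Sox9 with Eya1 was found in 14 of 37 RC-like cells (37.8%, 22.5 to 55.2%) and in 2 of 33 SC-like cells (6.06%).

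Sox9, Eya1 and Otx2 together marked 10 of 17 Slc26a7/Vmo1 cells (58.8%, 32.9 to 81.6%) and none of the 70 pendrin cells (up to 5.13%). Eya1 with Alx1 was present in 14 of 84 IMC-like cells (16.7%) and in none of the other named types. The median number of members per cell was 4 in Slc26a7/Vmo1 cells, 3 in SC-like and MC-like cells, 2 in IMC-like and RC-like cells, 1 in the Sorcs2 cluster and 0 in the Slc4a1/Mpo cluster. The last 2 clusters also held 17 of the 20 cells under 100000 counts.

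As a description of likeness, the Pearson r of log2(CPM + 1) was taken over all cells against 11829 genes. The cells share run dates and differ in depth, and no test was made. Esrrb was most like Kcne1 (r = 0.66), the potassium channel subunit of marginal cells, Slc22a4 (0.63) and Rasgef1c (0.62). Tbx1 was most like Fam20a, Mall and Lrp2 (each 0.58), the last of which encodes megalin.

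Eya4 was most like the epithelial genes F11r (0.60), Epcam (0.60) and Spint1 (0.59), and Sox9 like Cd9 (0.50), Lect1 (0.50) and Epcam (0.49). For Otx2 the nearest were the predicted genes Gm21663 (0.81), Gm10471 (0.78) and Gm21168 (0.75). Such predicted genes can have near-identical copies that share reads, so their values are uncertain. Eya1 (Frmd4b, 0.36) and Alx1 (Lhfpl1, 0.39) had no close match. That of Tbx18 (Chst7, 0.49) rests on the few cells named above. Between members the highest r was 0.33, for Esrrb with Tbx1 and for Eya4 with Sox9.

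Of 56 related factors listed by family or known role, 36 reached 10 CPM in a named WT type and 21 of these were at least 2-fold higher in 1 type than in the next, against 34.3% of all genes. RC-like cells led with 8, among them Sox2, Sox11, Gata3, Nr2f1, Nr2f2, Isl1 and Zic1, followed by SC-like cells with 5 (Six2, Six4, Tbx3, Otx1 and Grhl2). IMC-like cells had 4 (Eya3, Tbx2, Mitf and Pax3) and MC-like cells 4 (Dach1, Hmx2, Hmx3 and Tfcp2l1). Over all genes RC-like cells also led, with 11.6%, against 8.48% for SC-like, 8.02% for IMC-like and 6.16% for MC-like cells. The lead of RC-like cells is therefore not read as a trait of these factors. Without the highest cell of the leading type 12 of the 21 passed, and no share of all genes is given for that rule. Those that did not included Sox2, whose RC-like mean fell from 11.4 to 0.103 CPM, Zic1 (26.6 to 0.528 CPM) and Sox11 (32.4 to 8.17 CPM), as well as Eya3, Six2, Otx1, Dach1 and Hmx3.

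**Figure D3:**
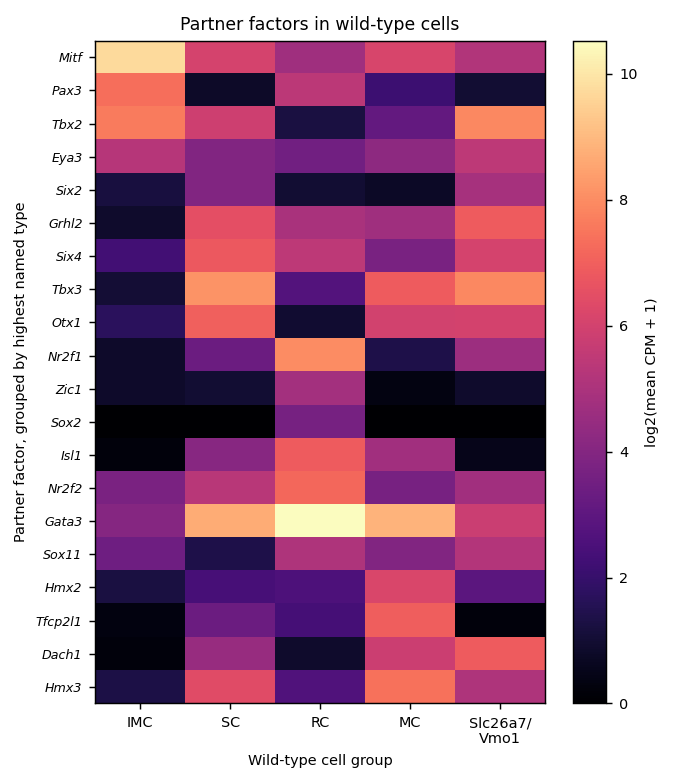
Mean CPM in WT cells of the related factors named above as at least 2-fold higher in 1 type, by cell type and in the Slc26a7/Vmo1 cells, as shades of log2(CPM + 1). Gata3 peaks in RC-like cells at 1472 CPM, Mitf in IMC-like cells at 833.8 CPM, Tbx3 in SC-like cells at 287.5 CPM and Hmx3 in MC-like cells at 169.2 CPM.

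The PAX-SIX-EYA-DACH network, in which Eya1 and Eya4 work, had 9 of 10 further members expressed and 4 past 2-fold in a type, beside 34.3% of all genes. Six4, which binds DNA for the Eya proteins, averaged 110.5 CPM in SC-like, 42.96 CPM in RC-like, 12.1 CPM in MC-like and 3.89 CPM in IMC-like cells. Thus IMC-like cells carried Eya1 with little Six4, while their Six5 (15.6 CPM) and Eya3 (38.2 CPM) means were the highest of the 4 types.

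The T-box relatives of Tbx1 split by type. Tbx3 had 287.5 CPM in SC-like and 117.7 CPM in MC-like cells but 5.69 CPM in RC-like and 1.08 CPM in IMC-like cells, the same 2 types as Tbx1. Tbx2 was highest in IMC-like cells (197.2 CPM) and stood at 57.7, 1.398 and 7.77 CPM in SC-like, RC-like and MC-like cells. Otx1, the relative of Otx2, had 128.6 CPM in SC-like, 62.03 CPM in MC-like and 64.8 CPM in Slc26a7/Vmo1 cells, so it was not tied to the cells with Otx2.

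Among 7 Sox relatives all were expressed, and Sox10, the neural crest and otic factor, was highest of the named types in IMC-like cells (457.6 CPM) without passing 2-fold. The 2 oestrogen-related receptors Esrra and Esrrg did not follow Esrrb. Esrra had 68.97 CPM in MC-like and 70.6 CPM in IMC-like cells, and Esrrg 12.7 and 13.2 CPM. None of the 5 POU relatives reached 10 CPM.

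The genotypes were compared within IMC-like cells and within pendrin cells. Both mutant genotypes were set against the same WT cells. In IMC-like cells 5 members had a mean of 10 CPM in 26 Slc26a4-/- or 38 WT cells, and 3 of these passed 2-fold, 1 higher and 2 lower, while 30.3% of 9473 genes did (13.1% higher and 17.2% lower). The median log2 ratio of these 5 was −0.89, against −0.10 over all genes counted.

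**Figure D4:**
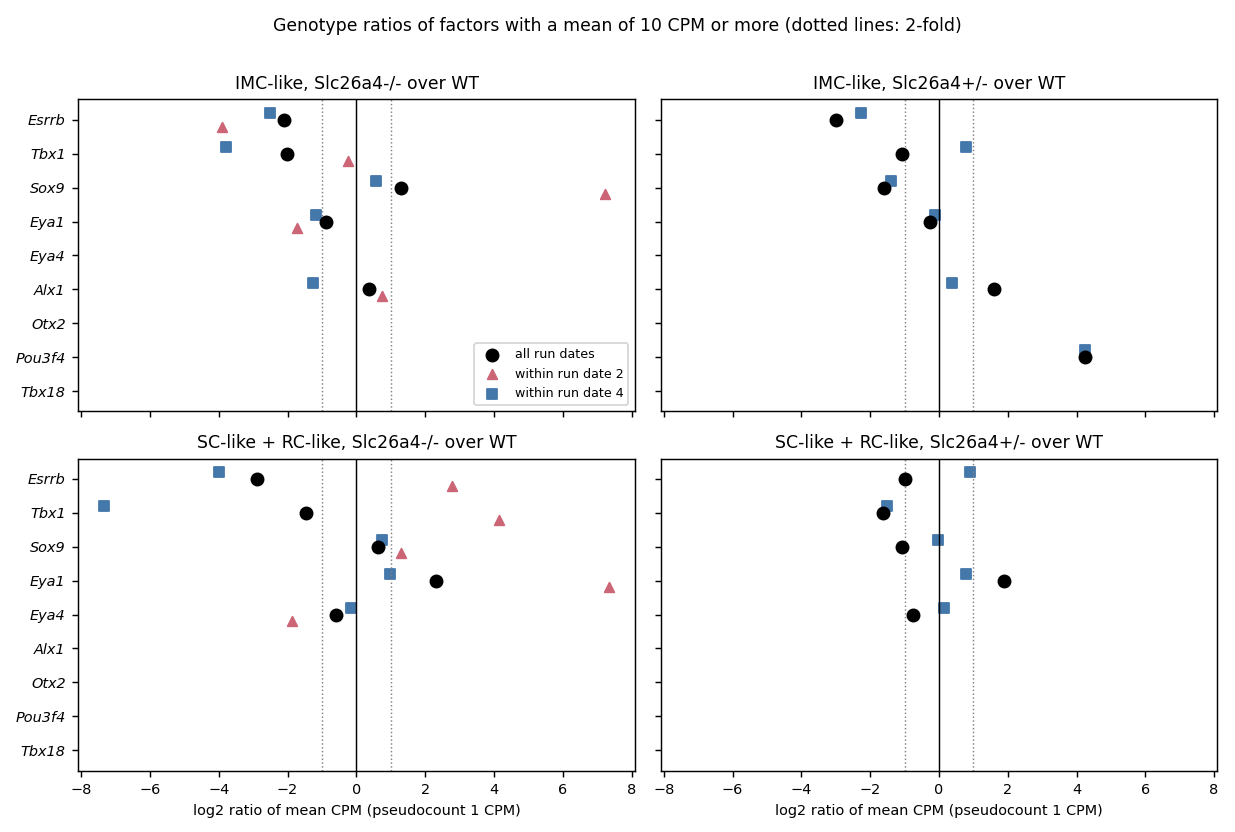
log2 ratio of mean CPM (pseudocount 1 CPM) of each counted member in Slc26a4+/- and Slc26a4-/- over WT cells, for IMC-like and pendrin cells, with the values within run dates 2 and 4 beside the pooled one. Several pooled ratios, such as Tbx1 in pendrin cells of Slc26a4-/- mice (−1.48), fall between within-date values of opposite sign.

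Sox9 was the member with the higher mean, 433.9 CPM in Slc26a4-/- against 174.8 CPM in WT IMC-like cells (log2 ratio 1.31). Within run date 2 the ratio was 7.21, where 15 Slc26a4-/- cells had a mean of 583.2 CPM and 5 WT cells one of 2.93 CPM. Within run date 4 it was 0.58, with 230.3 CPM in 11 cells and 153.7 CPM in 7. Both dates had the same direction. A single Slc26a4-/- cell had 4203 CPM, and without it the ratio was 0.69, below 2-fold.

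Tbx1 had means of 21.7 CPM in Slc26a4-/- and 90.5 CPM in WT IMC-like cells (−2.01). The ratio was −0.24 within run date 2 and −3.79 within run date 4. Esrrb had 2.07 and 12.3 CPM (−2.11), with ratios of −3.91 and −2.52 within run dates 2 and 4, and without the highest WT cell the pooled ratio was −0.87. The WT mean of Esrrb was 63.7 CPM within run date 2, with a highest cell of 296.7 CPM among 5. Within run date 4 it was 6.98 CPM, below 10 CPM, and 1 of 7 cells had 10 counts. Over all run dates Eya1 (−0.89) and Alx1 (0.37) stayed within 2-fold. Within run dates 2 and 4 the ratios were −1.73 and −1.18 for Eya1, and 0.74 and −1.27 for Alx1. Summed MC markers in these IMC-like cells had medians of 509.8 CPM in WT and 211.96 CPM in Slc26a4-/- cells, all 7 markers having a median above 0 in WT. Summed pericyte markers had medians of 11.7 and 113.4 CPM, with a highest cell of 2908 CPM among Slc26a4-/- cells. IMC markers had 45052 and 75999 CPM. The part of these in the members' ratios was not tested.

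In 20 Slc26a4+/- IMC-like cells 6 members were counted and 5 passed 2-fold, 2 higher and 3 lower, against 29.8% of 9474 genes (11.5% higher and 18.3% lower). The median log2 ratio was −0.67, against −0.10 over all genes. Alx1 had 69.01 CPM in Slc26a4+/- and 21.9 CPM in WT cells (1.61), but within run date 4, the only date of these cells, the ratio was 0.39. Sox9 had 57.5 and 174.8 CPM (−1.59, and −1.40 within run date 4). Its mean was thus lower in Slc26a4+/- and higher in Slc26a4-/- cells than in WT.

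Pou3f4 had 18.1 CPM against 0.0116 CPM (4.24), of which 1 cell of 315.6 CPM gave 87.2%. Tbx1 had 42.4 against 90.5 CPM (−1.08), which turned to 0.79 within run date 4. Esrrb had 0.659 against 12.3 CPM (−3.00). Of the 5 calls, those of Alx1 and Tbx1 did not pass 2-fold within run date 4. For Esrrb the ratio was −2.27 there, but the WT mean of 6.98 CPM lay below 10 CPM, so 2 of the 5 calls were left.

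**Figure D5:**
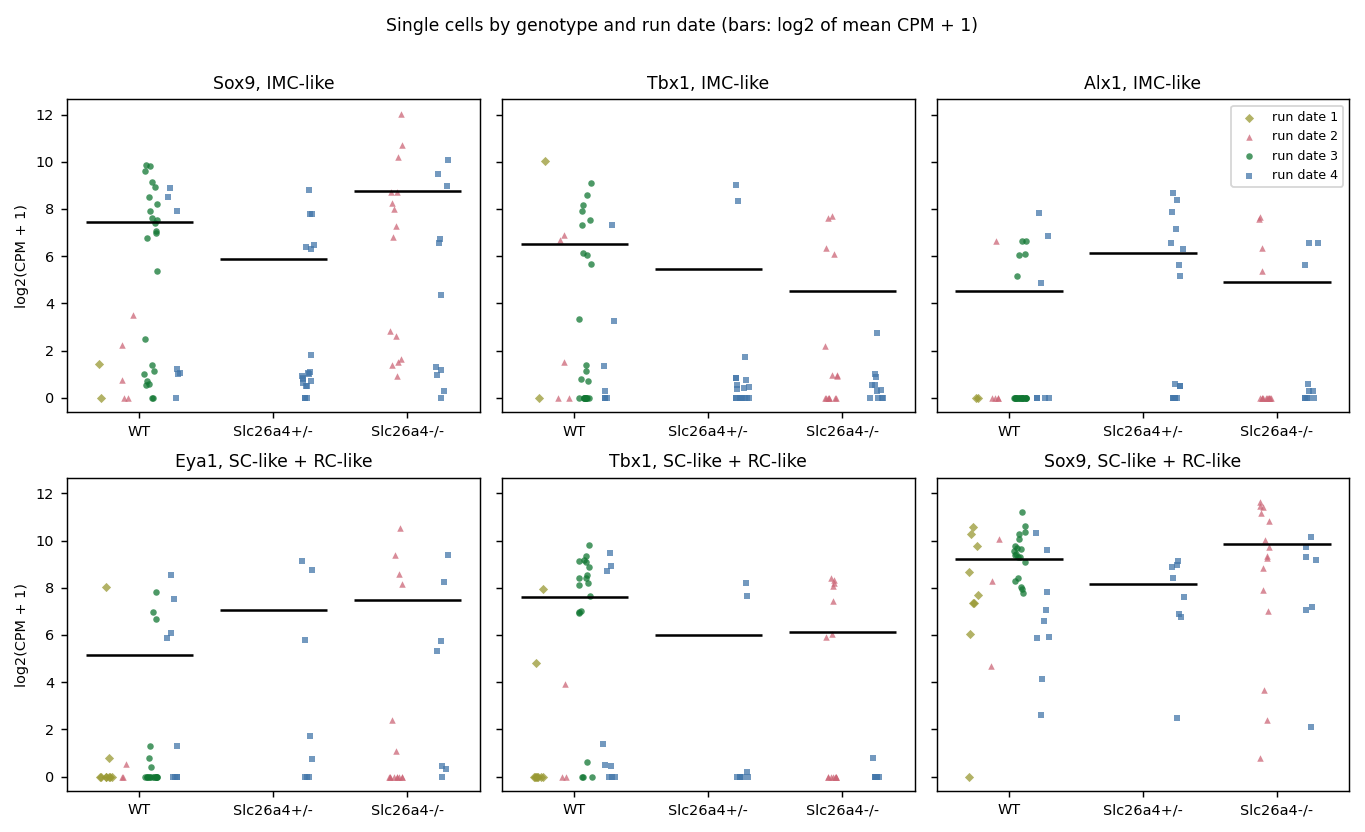
log2(CPM + 1) of Sox9, Tbx1, Alx1 and Eya1 in every IMC-like or pendrin (SC-like and RC-like) cell of the 3 genotypes, coloured by run date, with the log2 of the mean CPM + 1 of each group as a bar. The ranges of all 3 genotypes overlap for each member shown, and 1 Slc26a4-/- IMC-like cell reaches 4203 CPM of Sox9.

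In pendrin cells 5 members were counted for 22 Slc26a4-/- against 40 WT cells and 3 passed 2-fold, 1 higher and 2 lower, against 37.6% of 10414 genes (15.1% higher and 22.5% lower). The median log2 ratio was −0.58, against −0.14 over all genes. The mix of types differed: 23 of 40 WT pendrin cells but 8 of 22 Slc26a4-/- ones were SC-like, and all SC-like Slc26a4-/- cells came from run date 2. Since Tbx1 and Eya1 differed between SC-like and RC-like cells, each type is given apart.

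Tbx1 had 69.02 CPM in Slc26a4-/- and 194.5 CPM in WT pendrin cells (−1.48). Within run date 2 the ratio was 4.14 against 3 WT cells, and within run date 4, where all 7 Slc26a4-/- cells were RC-like, −7.35. In SC-like cells alone the mean was 189.7 CPM in 8 Slc26a4-/- and 308.6 CPM in 23 WT cells, and 7 of 8 and 17 of 23 had at least 10 counts. In RC-like cells the means were 0.0513 and 40.2 CPM, with medians of 0 in both. Most SC-like cells of Slc26a4-/- mice thus carried Tbx1, as did most of WT mice.

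Eya1 had 175.9 CPM in Slc26a4-/- and 34.9 CPM in WT pendrin cells (2.30), with ratios of 7.35 within run date 2 and 0.98 within run date 4. It stood in the RC-like cells, with means of 276.3 CPM in 14 Slc26a4-/- and 61.5 CPM in 17 WT cells. Within run date 4 the RC-like means were closer, 150.4 CPM in 7 Slc26a4-/- and 113.4 CPM in 6 WT cells. At least 10 counts were found in 4 cells of each there. Run date 2 held only 1 WT RC-like cell, with 0 CPM, so RC-like cells cannot be compared within it. The RC-like medians were 45.97 and 0 CPM and the highest cells 1465 and 371.0 CPM. At least 10 counts were present in 57.1% of Slc26a4-/- RC-like cells (interval 28.9 to 82.3%) and 35.3% of WT ones (14.2 to 61.7%), and these intervals overlapped widely. In SC-like cells the means were 0.139 and 15.3 CPM.

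Esrrb had 8.604 and 70.7 CPM (−2.90), with ratios of 2.79 and −4.00 within run dates 2 and 4, and its levels rested on few cells in both genotypes. Sox9 (931.0 against 600.0 CPM, 0.63) and Eya4 (50.8 against 76.7 CPM, −0.58) stayed within 2-fold. Median depth in SC-like cells was 524052 counts in Slc26a4-/- and 1820560 in WT cells, and its part was not tested.

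In 8 Slc26a4+/- pendrin cells 5 members were counted and 3 passed 2-fold, 1 higher and 2 lower, against 47.1% of 10473 genes (19.1% higher and 28% lower). The median log2 ratio was −0.98, against −0.11 over all genes. Eya1 had 131.2 CPM (1.88, and 0.78 within run date 4), Tbx1 62.4 CPM (−1.63, and −1.50) and Sox9 286.4 CPM (−1.06, and −0.04). Of these 8 cells 2 were SC-like, with 201.1 and 297.7 CPM of Tbx1, and 6 were RC-like, with at most 0.151 CPM. The only ratio that passed 2-fold both pooled and within the run date was that of Tbx1. Within run date 4 the SC-like means of Tbx1 were 249.4 CPM in 2 Slc26a4+/- and 375.8 CPM in 3 WT cells. The 6 WT RC-like cells of that date had a mean of 80.1 CPM. Only 1 of them had at least 10 counts, at 478.8 CPM. The part of this cell and of the mix of types in the ratio was not tested.

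Among the 56 related factors, 16 were counted in IMC-like cells for Slc26a4-/- over WT, and 1 was at least 2-fold higher (Pou2f1) and 4 lower (Eya2, Six5, Gata3 and Nr2f2), with a median log2 ratio of −0.11. Only that of Six5 passed 2-fold the same way within both run dates, and Gata3 (−1.45) turned to 0.80 and 0.60 and Eya2 (−2.37) to 0 and 2.08. For Slc26a4+/- cells 15 were counted, none higher and 4 lower (Eya2, Esrra, Gata3 and Nr2f2), with a median of −0.81, and 2 of these 4 held within run date 4. In pendrin cells of Slc26a4+/- mice 28 were counted, 5 higher (Eya2, Eya3, Sox6, Pou4f3 and Isl1) and 8 lower (Tbx2, Sox8, Hmx3, Mitf, Pax3, Nr2f1, Grhl2 and Zic1), with a median of −0.54, and 9 of these 13 held within run date 4. In those of Slc26a4-/- mice 28 were counted, 5 higher (among them Eya3, Esrra, Sox6 and Pou2f1) and 6 lower (Tbx3, Sox8, Sox11, Hmx3, Pax3 and Zic1), with a median of −0.13, and of these 11 only Eya3 held within both run dates. Tbx3 had a pooled ratio of −1.30 but 2.62 and −0.96 within run dates 2 and 4. Without the highest mutant or WT cell, 1 of the 5 calls held in Slc26a4-/- and 2 of the 4 in Slc26a4+/- IMC-like cells. In pendrin cells 6 of the 11 held for Slc26a4-/- and 6 of the 13 for Slc26a4+/- mice. Summed hair cell markers reached 4475 CPM in 1 of the 6 Slc26a4+/- RC-like cells. Its part in ratios such as that of Pou4f3 was not tested. The shares of factors past 2-fold stood beside 30.3% and 29.8% of all genes in IMC-like and 37.6% and 47.1% in pendrin cells of Slc26a4-/- and Slc26a4+/- mice, and no difference from all genes was tested.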

How the data were processed

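Cells were grouped by the genotype in the sample labels. The authors assigned reads to the GRCm38 (mm10) mouse transcriptome with kallisto and deposited estimated counts and TPM per transcript, and a gene table of estimated counts, per the submitters' notes. The annotation release is not given in the sources used here. That table has 17 further columns, which were not used. Promoter sequences were those of RefSeq on GRCm38.p6, matched for 6 of 9 members. Gene positions came from GENCODE M21, whose models lacked a median of 0.635% of a cell's counts. Transcript TPM were summed per gene. Counts were scaled to CPM per cell. The PCR reads carry no molecular identifiers, so intervals cover counting error only.

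Clusters were made with Seurat 5.3.0 in R 4.3.3 (genes in at least 3 cells, scale factor 10000, 2000 variable genes of which 1992 were used after the members, related factors and Slc26a4 were left out, 10 PCs, resolution 0.8). A name was given to a cluster if 80% or more of its cells had that type as top score, with 3 or more markers detected and no excess of another type's markers among the 10 leading genes. Cells were picked singly, so no doublet caller was run, and no cell was removed. Named types can differ from those of the study, since they were rebuilt.

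Other steps used scipy 1.17.1, pandas 2.3.3 and numpy 2.4.6 under Python 3.11.15, and matplotlib 3.10.9 for plots. A gene was counted from a mean of 10 CPM and called at 2-fold on log2(mean CPM + 1), which understates the change of low genes. No test was made, since a genotype is 1 sample. The fold calls were also run on simulated independent cells. That simulation held no run dates, mice or mix of cell types, so it cannot show how these move the ratios. The genes named were all members, the 3 genes most like each and related factors of at least 10 CPM. Members, lists and settings were chosen with earlier results of these data known. Alternatives were the unit, scaling, summary over cells, filters, pseudocount, clustering and run dates. Results on some genes are not reported here.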

Additional observations from a re-analysis of the deposited data

Results flagged for a closer look

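Groups of 4 to 10 cells were searched for a highest or lowest cell that stood apart from the rest by Dixon's criterion. Of 16 such groups 3 were marked. The nominal rate of about 1 in 20 holds for normal values, while both marked Esrrb groups held several cells at 0 CPM. No excess over chance can therefore be read from this count. Esrrb was high in 1 of 8 SC-like cells of Slc26a4-/- mice, at 178.2 CPM, with the next cell at 5.05 CPM. It was also high in 1 of 6 RC-like cells of Slc26a4+/- mice, at 154.5 CPM, with the next at 1.54 CPM. Single cells with Esrrb outside the MC-like cells were thus seen in both mutant genotypes, as they were in WT. Sox9 was low in 1 of 4 Slc26a7/Vmo1 cells of Slc26a4+/- mice, at 397.2 CPM, where the next cell had 882.5 CPM.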

How the results depend on the processing

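Esrrb in MC-like over SC-like cells passed 2-fold under all 20 alternatives (log2 3.60 to 10.1), Otx2 in Slc26a7/Vmo1 cells over the highest named type under all 18 that gave this cluster (3.74 to 7.65), Alx1 in IMC-like cells under 19 of 20 and Tbx18 in RC-like cells under 15 of 20. The count of members past 2-fold in a type was 3, and 2 to 5 over alternatives. With a run date left out it was 3 to 5, and without run date 2 it was 5, with Pou3f4 and Eya4 added. Of the values of these 5 counts under alternatives 92 stayed within 1.5 times and 14 did not, and of 685 values of 33 single ratios 612 stayed, 69 moved and 4 reversed, where only a ratio past 2-fold could count as reversed. Other ratios changed sign too: Pou3f4 in RC-like over MC-like cells kept its sign in 12 of 20 (−2.88 to 3.43), Otx2 in MC-like over SC-like cells in 17 of 20 (−3.40 to 5.43), Alx1 in IMC-like Slc26a4-/- cells in 17 of 22 (−0.26 to 1.13) and Esrrb in pendrin Slc26a4+/- cells in 17 of 21 (−2.04 to 1.90).

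The genotype counts moved more. For IMC-like Slc26a4-/- cells the count of 3 became 1 without the highest cell. For IMC-like Slc26a4+/- cells the count of 5 became 3 with the mean of log2(CPM + 1), 0 with the median CPM, 2 without the highest cell and 2 within run dates. For pendrin Slc26a4-/- cells the count of 3 became 5 with no filter on low values, 5 with means over collection sessions and 6 within run dates. For pendrin Slc26a4+/- cells the count of 3 became 1 with the median CPM, 1 at resolution 0.4, 1 without the highest cell, 5 with no filter and 6 with session means. With a run date left out the 4 counts were 2 to 4, 4 to 4, 2 to 3 and 3 to 4. In IMC-like Slc26a4+/- cells the log2 ratio reversed for Esrrb with the median CPM (0.49), for Tbx1 within run date 4 (0.79), and with 20 PCs for Pou3f4 (−1.02) and Alx1 (−3.54). The cause of these changes was not tested.

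Leaving out the highest cell (of members and related factors) and joining the Sorcs2 cluster to the IMC-like cells were chosen after seeing the data, as were run-date spreads with single cells. Slc26a4+/- cells gave no value without run date 4, and names by marker score and resolution 0.4 gave no Slc26a7/Vmo1 group. No paired analysis was possible because the genotypes share no replicate number. Levels near 1 count in shallow cells set the limit of detection.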

Other observations

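Beyond the members, the Slc26a7/Vmo1 cells held several related factors at a higher WT mean than any of the 4 named types. The mean of Lmx1a, a LIM homeodomain factor of the otic epithelium, was 408.8 CPM there against 173.6 CPM in MC-like cells, that of Dach2 was 166.1 CPM against 47.6 CPM in SC-like cells, and that of Dach1 was 116.5 CPM against 55.9 CPM in MC-like cells. Grhl2, an epithelial factor, had 116.5 CPM against 90.01 CPM in SC-like cells. Tbx2 (239.2 CPM) and Sox10 (531.4 CPM) stood above the IMC-like means of 197.2 and 457.6 CPM by less than 2-fold. Eya3, Six2, Six5 and Sox11 were also highest there, at 28.5 to 47.3 CPM. Gata3, by contrast, had 54.1 CPM there against 1472 CPM in RC-like cells. These cells numbered 11 in WT, and the values carry no test. Neither the share of all genes that were highest there nor means without the highest cell are given, so no trait of these cells is drawn from them.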
